A study of Mus musculus with 12 samples.

Results

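The Cyp2d genes are a family of cytochrome P450 genes that lie side by side on mouse chromosome 15. The family was taken by gene symbol as 9 of the 24537 genes in the deposited table: Cyp2d9, Cyp2d10, Cyp2d11, Cyp2d12, Cyp2d13, Cyp2d22, Cyp2d26, Cyp2d34 and Cyp2d40. The table holds a 10th Cyp2d row, the pseudogene Cyp2d37-ps, which was not a member. Liver RNA was sequenced from 12 individually housed male C57Bl/6J mice that entered the study at 6 weeks of age. Control (Con) mice ate ad libitum and caloric restriction (CR) mice received 30% less than the Con mice ate. Each diet was sampled in 3 mice at day 25 and in 3 other mice at day 30, which gave 4 groups. The paper states that CR mice ate a fortified form of the Con chow, given daily at noon. It also labeled its mice with heavy water over the 4 days before sacrifice. All mice shared the strain, sex and starting age, and no transgene or deletion was used. The groups thus differed by day and by diet, in which amount, chow and meal timing cannot be told apart. The labels name the mice separately but do not describe litters or extractions. The tissue was whole liver, in which fewer cells of a type and less RNA per cell cannot be told apart.

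Cyp2d enzymes are heme monooxygenases of the endoplasmic reticulum that oxidize drugs, steroids and other lipophilic compounds with electrons delivered from NADPH by cytochrome P450 oxidoreductase. In humans the family is represented by CYP2D6, which clears many antidepressants, opioids and beta blockers, whereas the mouse carries a tandem array of related genes. Cyp2d9 is the best known mouse member as a testosterone 16α-hydroxylase with male-predominant expression in liver, a pattern that depends on the pulsatile growth hormone secretion of males and on transcription factors such as STAT5b and HNF4α.

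The members spanned positions 82370527 to 82794245 of chromosome 15 (mm10). In order along the chromosome, Cyp2d22 lay at 82370527 to 82380260, Cyp2d11 at 82389154 to 82394022, Cyp2d10 at 82402846 to 82407194 and Cyp2d9 at 82452377 to 82456827. They were followed by Cyp2d12 at 82555098 to 82559413, Cyp2d34 at 82615965 to 82620907, Cyp2d13 at 82636750 to 82642045, Cyp2d40 at 82759833 to 82764122 and Cyp2d26 at 82790107 to 82794245. Cyp2d9 and Cyp2d12 were on the plus strand and the other 7 members on the minus strand. RefSeq classes Cyp2d13 as a transcribed pseudogene and the other 8 as protein coding. An annotated antisense gene, Gm49431, covers the whole of Cyp2d13 on the opposite strand. Whether reads were counted by strand is not given in the sources used here, so reads of Cyp2d13 and of its antisense partner cannot be told apart. Small annotated microRNA genes also overlap Cyp2d9, Cyp2d10, Cyp2d11, Cyp2d12 and Cyp2d13 on the same strand.

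The proximal promoters are shown because the members that moved in opposite directions under CR could be compared for shared elements. RefSeq promoter sequences (GRCm38.p6) were held for 5 of the 9 members: Cyp2d9, Cyp2d10, Cyp2d11, Cyp2d26 and Cyp2d40. The 120 bases before each annotated start are given 5′ to 3′ on the strand of the gene. Capitals mark matches to CAAAGNNCA, the core letters of an HNF4-type element, and to TATAA, the TATA core, each searched on both strands. Because TTATAA holds TATAA on one strand and its overlapping match on the other, it appears as 6 capitals.
Cyp2d9, chr15:82452257-82452376, plus strand: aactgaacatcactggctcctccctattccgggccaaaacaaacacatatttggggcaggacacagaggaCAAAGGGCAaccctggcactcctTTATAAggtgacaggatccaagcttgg
Cyp2d10, chr15:82407195-82407314, minus strand: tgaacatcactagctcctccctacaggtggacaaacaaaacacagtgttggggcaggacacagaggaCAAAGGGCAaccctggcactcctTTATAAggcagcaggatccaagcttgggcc
Cyp2d11, chr15:82394023-82394142, minus strand: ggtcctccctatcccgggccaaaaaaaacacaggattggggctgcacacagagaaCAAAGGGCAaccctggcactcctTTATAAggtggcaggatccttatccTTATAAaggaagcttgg
Cyp2d40, chr15:82764123-82764242, minus strand: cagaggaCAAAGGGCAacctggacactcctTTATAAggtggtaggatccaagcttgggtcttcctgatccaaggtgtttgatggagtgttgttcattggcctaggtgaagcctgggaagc
Cyp2d26, chr15:82794246-82794365, minus strand: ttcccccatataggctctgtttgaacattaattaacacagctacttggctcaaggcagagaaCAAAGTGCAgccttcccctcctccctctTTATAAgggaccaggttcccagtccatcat

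All 5 promoters held a CAAAGNNCA match within the 250 bases before the start, compared with 5.49% of 32851 RefSeq promoters searched over the same length. All 5 also held TATAA, compared with 22.8% of promoters. None of the 5 held TTCNNNGAA, the letters of a STAT-type element, which 7.02% of promoters held. The letters of the HNF4-type match were CAAAGGGCA in Cyp2d9, Cyp2d10, Cyp2d11 and Cyp2d40, and CAAAGTGCA in Cyp2d26. The first letter of that match preceded the first letter of the next TTATAA by 23 bases in the former 4 promoters and by 28 bases in Cyp2d26. In Cyp2d40 both matches lay farther from the annotated start, 113 and 90 bases upstream, compared with 50 and 27 bases in Cyp2d9. Over the 250 bases, the Cyp2d9 promoter was 85.0% identical to that of Cyp2d10, 93.6% to that of Cyp2d11 and 80.2% to that of Cyp2d40. It was 54.9% identical to that of Cyp2d26. The promoters of Cyp2d9, Cyp2d10, Cyp2d11 and Cyp2d40 were 78.7% to 93.6% identical to each other. Their matches are therefore not separate observations to set against the share over all promoters. A match of letters is a description of the sequence and no binding was measured.

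Near-identical members can exchange reads, so the likeness of the transcripts was measured in the mouse annotation (GENCODE M21, GRCm38) for the 8 members it holds. Cyp2d13 was not in that set. Cyp2d9 and Cyp2d10 were identical at 91.6% of aligned bases, and Cyp2d10 and Cyp2d11 at 94.2%. Cyp2d26 was at most 81.4% and Cyp2d22 at most 77.4% identical to any other member. The reads were 100 bases long, and 9.86% of the 100-base windows of Cyp2d9 had an exact copy in a transcript of another gene. The share was 14.8% for Cyp2d10 and 12.2% for Cyp2d11, mostly shared between them, and 3.79% for Cyp2d12. It was 0.375% for Cyp2d26, 0.225% for Cyp2d22, 0.128% for Cyp2d34 and 0% for Cyp2d40. The longest stretch that Cyp2d9 and Cyp2d10 shared is printed because a read inside it cannot be assigned to either gene by its sequence alone. It runs for 164 bases over exons 2 and 3, entirely in the coding sequence, at chr15:82453726-82453769 and chr15:82454038-82454157 in Cyp2d9 and at chr15:82405907-82405950 and chr15:82405519-82405638 in Cyp2d10.
Shared stretch: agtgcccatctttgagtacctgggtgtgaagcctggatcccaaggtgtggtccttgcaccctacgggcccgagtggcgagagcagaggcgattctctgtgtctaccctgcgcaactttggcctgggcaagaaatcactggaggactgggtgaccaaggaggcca

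How reads with several equal matches were treated is not given in the sources used here. The values of Cyp2d9, Cyp2d10, Cyp2d11 and Cyp2d12 are therefore uncertain by the part of their reads that fell in such windows. Over windows as long as a read, Cyp2d22, Cyp2d26 and Cyp2d40 had few or no copies among the transcripts of the set. Over 50-base windows the share was 24.1% for Cyp2d40, 10.5% for Cyp2d26 and 6.14% for Cyp2d22, beside 17.9% for Cyp2d12. Because Cyp2d13 was not in the set, copies in it were not counted and its own share was not measured. Copies in Cyp2d10 made up 11.1% of the read-length windows of Cyp2d11, and copies in Cyp2d9 3.79% of those of Cyp2d12. Cyp2d10 had 8460 to 12812 and Cyp2d9 6789 to 33401 reads per library, whereas Cyp2d11 had 6 to 12 and Cyp2d12 1 to 13. Reads of Cyp2d10 and Cyp2d9 were thus not passed to Cyp2d11 or Cyp2d12 beyond these few. Whether shared reads were left out, or exchanged between Cyp2d9 and Cyp2d10, was not tested.

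**Figure D1:**
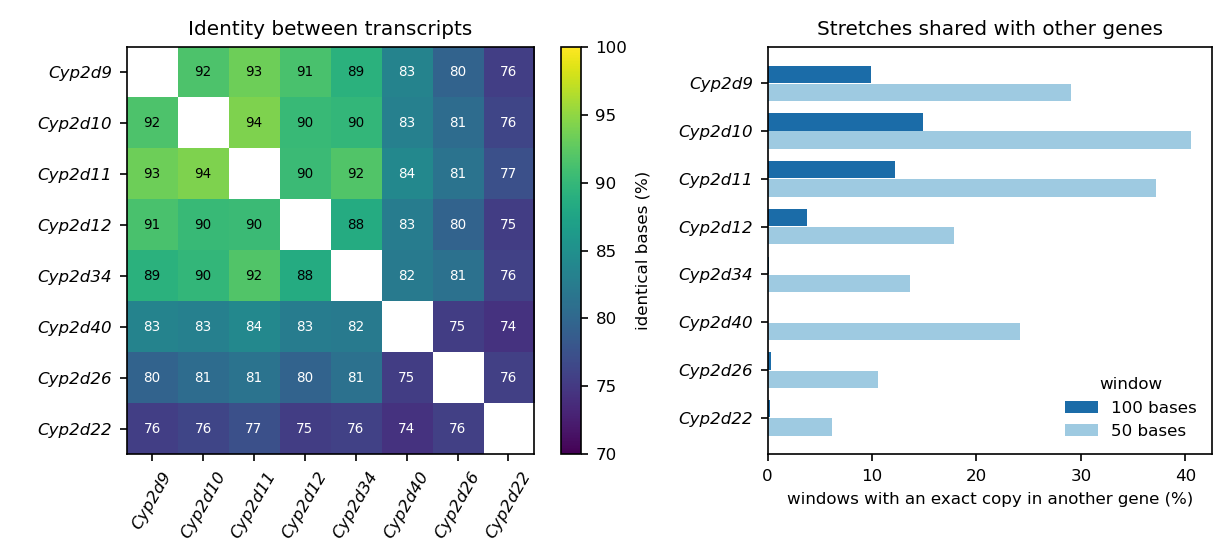
Left, percentage of identical aligned bases between the transcripts of 8 Cyp2d genes (both axes list the genes). Right, percentage of 100-base (dark bars) and 50-base (light bars) windows of each transcript with an exact copy in a transcript of another gene. Cyp2d10 had the largest share of 100-base windows with a copy, 14.8%, whereas Cyp2d22 and Cyp2d26 were the least alike to the rest.

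The levels are FPKM (reads on exons scaled by exon length and library depth) as deposited, which allow levels to be compared between genes. The depth recovered from the values was 15748825 to 23345625 reads per library, and ranged from 16855200 to 22546475 in Con mice. By defining markers the tissue was liver, with Alb at 29732 to 46413 mean FPKM in the 4 groups, the pancreatic markers Prss2, Ctrb1, Pnlip and Cpa1 at 0 or near 0, and the fifth pancreatic marker, Cela2a, at 0.872 to 1.15 mean FPKM. Summed FPKM of 5 Kupffer cell markers were 32.7 to 54.4 in Con and 20.6 to 25.7 in CR mice at day 25, when 3 of the 5 passed as lower (adjusted p under 0.1 by limma over all genes tested), and 28.5 to 42.2 and 26.6 to 36.7 at day 30, when 0 of 5 passed. At day 30, 3 of 5 hepatocyte markers, 2 of 5 endothelial and 2 of 4 tested stellate cell markers passed as higher under CR. Among all genes tested, 9.34% passed as lower at day 25, and 8.33% as higher and 16.4% as lower at day 30. Over both days, 2 hepatocyte markers passed as higher and 1 as lower, Apoa1 (-0.23, adjusted p = 0.0703, limma). Of the cholangiocyte markers, 0 of the 2 tested passed at either day. The part of these shifts in the values of the Cyp2d genes was not tested.

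In Con mice, Cyp2d9 was the most abundant member, followed by Cyp2d26 and Cyp2d10. At day 25 the Con means were 833 ± 242 FPKM for Cyp2d9, 497 ± 35.8 for Cyp2d26 and 339 ± 76.6 for Cyp2d10 (SD, n = 3). Cyp2d22, Cyp2d13 and Cyp2d40 followed at 95.4 ± 8.44, 66.6 ± 3.76 and 20.9 ± 6.09 FPKM. The ranges of neighbors in this order did not overlap among these 6 members at day 25. At day 30 the order in Con mice was the same, and only Cyp2d22 and Cyp2d13 overlapped (84.9 ± 11.2 and 75.5 ± 7.12 FPKM).

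The order at the top of the family changed under CR. At day 25, Cyp2d26 (561 ± 46.1 FPKM) stood above Cyp2d9 (456 ± 151), although their ranges overlapped, as did those of Cyp2d9 and Cyp2d10 (311 ± 43.5). At day 30, Cyp2d26 stood at 605 ± 67.3 FPKM above Cyp2d10 at 250 ± 23.7 and Cyp2d9 at 232 ± 74.2, and the latter 2 overlapped. Cyp2d22, Cyp2d13 and Cyp2d40 kept their places below them without overlap, at 105 ± 8.61, 54.0 ± 7.80 and 14.1 ± 1.87 FPKM.

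The other 3 members were at the edge of detection. Cyp2d11 ranged from 0.163 to 0.402 FPKM over the 12 mice (6 to 12 reads), Cyp2d12 from 0.037 to 0.439 (1 to 13 reads) and Cyp2d34 from 0 to 0.117 (0 to 4 reads). None reached the filter of 1 FPKM in at least 3 libraries, and all 3 overlapped between Con and CR at both days. A difference under CR was not detectable for them at this depth. The filter left 6 of the 9 members and 10593 genes in all for testing.

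**Figure D2:**
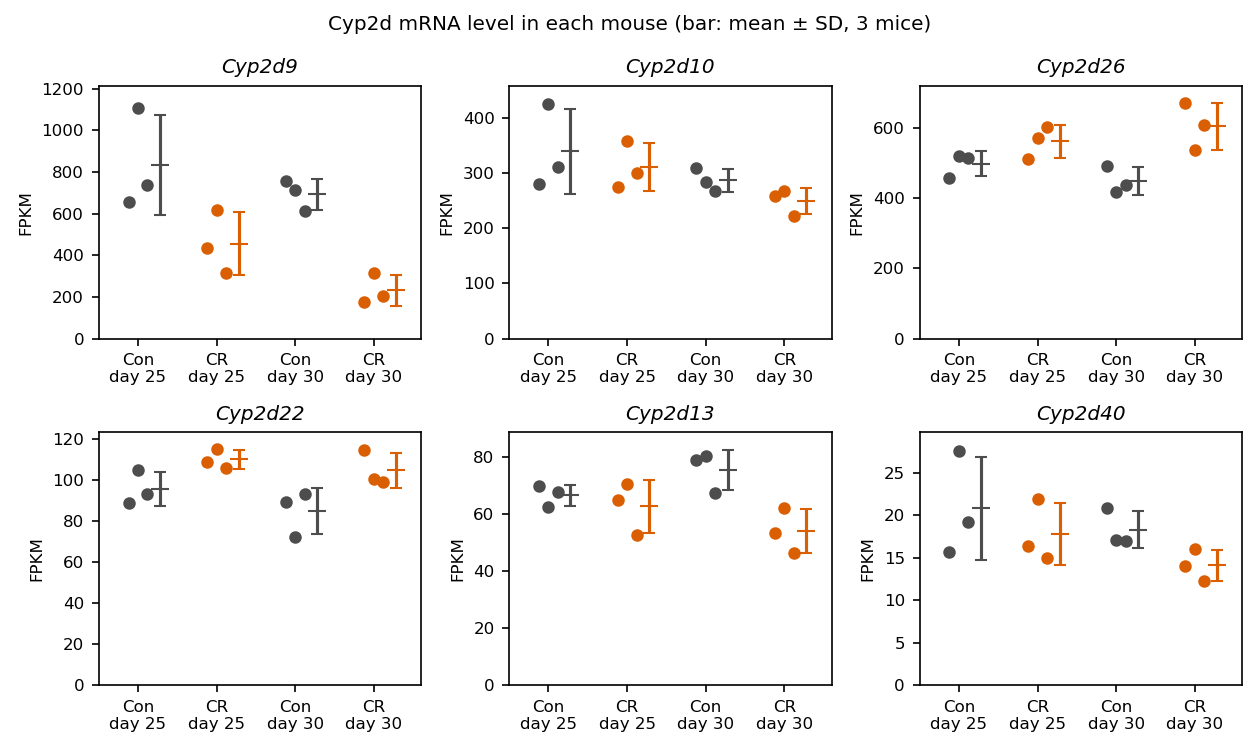
FPKM of the 6 tested Cyp2d genes in each mouse (points) by diet and day, with the mean ± SD of 3 mice beside them; each panel has its own vertical axis from 0. Cyp2d9 fell from 833 to 456 at day 25 and from 693 to 232 FPKM at day 30, whereas Cyp2d26 was above Con in all 3 CR mice at day 30.

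Cyp2d9, the testosterone 16α-hydroxylase, was lower under CR at both days. At day 25 the Con mice had 655, 1108 and 736 FPKM and the CR mice 436, 617 and 316 FPKM. At day 30 the Con mice had 757, 712 and 611 FPKM and the CR mice 177, 317 and 203 FPKM. Every CR mouse was below every Con mouse of its day, and the highest Con and highest CR mouse at day 25 were both replicate 2. The log2 fold change was -0.88 (SE 0.27, adjusted p = 0.0601) at day 25 and -1.61 (SE 0.27, adjusted p = 0.00230) at day 30 by limma with Benjamini-Hochberg adjustment over all genes tested. These values correspond to 1.84-fold and 3.06-fold lower levels on the log2(FPKM + 1) scale. At day 25 Cyp2d9 was the 1 member of 6 that passed the threshold of an adjusted p under 0.1, where 9.34% of all genes tested passed as lower and 5.6% as higher. The day 25 call was lost without Con replicate 2 of that day (adjusted p = 0.175), without CR replicate 1 (0.133), without CR replicate 3 (0.206) and without the filter on low values (0.128). The day 30 call held without each of the 12 mice in turn, with adjusted p up to 0.0134.

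Cyp2d26 is a neighboring P450 at the far end of the array and was higher under CR at day 30. At that day the Con mice had 492, 418 and 436 FPKM and the CR mice 671, 536 and 607 FPKM. All 3 CR mice were above all 3 Con mice. The log2 fold change was 0.43 (SE 0.12, adjusted p = 0.0295, limma), a 1.34-fold higher level, and it did not pass without CR replicate 1 (0.35, adjusted p = 0.122). At day 25 the Con mice had 456, 521 and 515 FPKM and the CR mice 511, 571 and 602 FPKM. The lowest CR mouse lay within the Con range, and the log2 fold change of 0.17 (SE 0.12) did not pass (adjusted p = 0.403).

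Cyp2d22, often compared with human CYP2D6, had slightly higher values under CR at both days. At day 25 it was at 88.5, 105 and 92.9 FPKM in Con and 109, 115 and 106 in CR mice. At day 30 it was at 89.4, 72.1 and 93.2 FPKM in Con and 115, 101 and 98.9 in CR mice. CR mice were above Con mice at each day without overlap. The log2 fold change was 0.21 (SE 0.12, adjusted p = 0.304) at day 25, which did not pass, and 0.30 (SE 0.12, adjusted p = 0.0955) at day 30, which passed narrowly. The day 30 call was lost in 9 of 12 models that left out 1 mouse, among them those without the day 30 Con library numbered 11 in its column name (adjusted p = 0.313) and without CR replicate 1 of day 30 (0.287). It was also lost with quantile normalization (0.119), without the filter on low values (0.113) and with the 6 libraries of the day alone (0.159).

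Cyp2d13, the transcribed pseudogene, was lower under CR at day 30. It was at 78.9, 80.3 and 67.3 FPKM in Con and 53.4, 62.1 and 46.5 FPKM in CR mice. All 3 CR mice were below all 3 Con mice, with a log2 fold change of -0.48 (SE 0.14, adjusted p = 0.0304, limma). At day 25 it was at 69.7, 62.4 and 67.6 FPKM in Con and 65.1, 70.7 and 52.6 in CR mice. These ranges overlapped, and the log2 fold change of -0.09 (SE 0.14, adjusted p = 0.727) did not pass.

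Cyp2d10, the abundant close relative of Cyp2d9, did not pass at either day. At day 25 it was at 281, 426 and 311 FPKM in Con and 274, 359 and 300 FPKM in CR mice, which overlapped. At day 30 it was at 310, 285 and 268 FPKM in Con and 259, 268 and 223 FPKM in CR mice, with the highest CR mouse just below the lowest Con mouse. The log2 fold changes were -0.11 (SE 0.16, adjusted p = 0.715) and -0.20 (SE 0.16, adjusted p = 0.393). With quantile normalization the day 30 value was -0.32 and passed (adjusted p = 0.0896).

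Cyp2d40, the least abundant tested member, likewise did not pass. It was at 15.7, 27.6 and 19.3 FPKM in Con and 16.4, 21.9 and 15.0 in CR mice at day 25, with overlap. At day 30 it was at 20.8, 17.1 and 17.0 FPKM in Con and 14.0, 16.0 and 12.3 in CR mice, without overlap. The log2 fold changes were -0.20 (SE 0.19, adjusted p = 0.551) and -0.36 (SE 0.19, adjusted p = 0.216). An alternative used the replicate number as a block at day 25, a pairing taken from these same data. The day 30 log2 fold change was unchanged, but the spread shared by the groups was smaller and it passed (adjusted p = 0.0723, limma).

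At day 30, then, 2 of the 6 tested members passed as lower (Cyp2d9 and Cyp2d13) and 2 as higher (Cyp2d26 and Cyp2d22). Among all genes tested, 16.4% passed as lower and 8.33% as higher at that day. Under median-ratio scaling, 51.6% of the genes that passed at day 30 were higher, compared with 33.7% in the values as deposited, and the 4 members kept their directions. Cyp2d9 was the 1 member that was also at least 2-fold lower at day 30, as were 1.28% of all genes. Groups did not overlap at day 25 for Cyp2d9 (CR below, as in 18.0% of all genes) and Cyp2d22 (CR above, as in 10.2%). At day 30 the CR mice were below all Con mice for 4 members, compared with 24.3% of all genes, and above them for 2 members, compared with 12.1%. The median log2 fold change of the 6 members was -0.10 at day 25 and -0.28 at day 30, beside -0.04 and -0.07 over all genes.

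**Figure D3:**
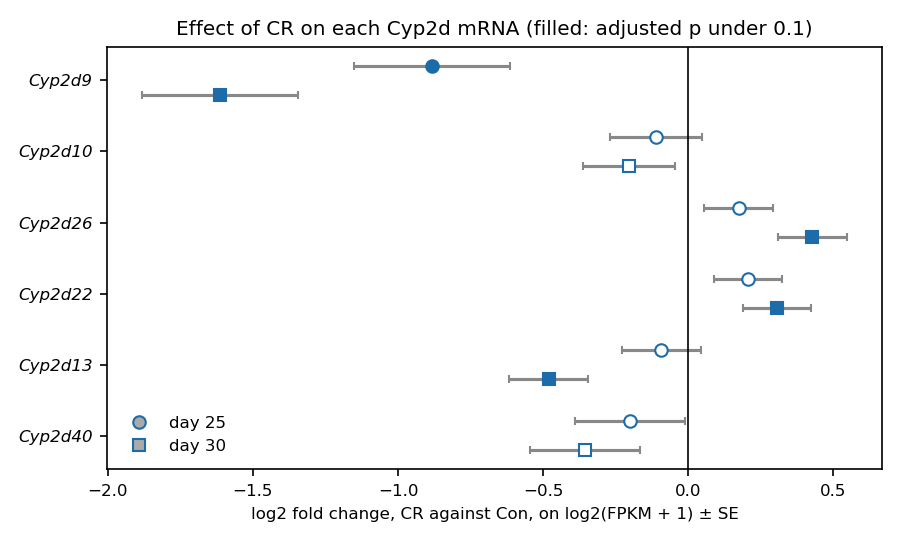
Log2 fold change of CR against Con with its SE (horizontal axis, log2(FPKM + 1) scale) for 6 Cyp2d genes at day 25 (circles) and day 30 (squares); filled symbols had an adjusted p under 0.1. Cyp2d9 moved from -0.88 to -1.61, with Cyp2d26 and Cyp2d22 on the opposite side of 0.

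The change of Cyp2d9 was larger at day 30 than at day 25 in value, and the difference between days was tested directly. It was -0.73 (SE 0.38, unadjusted p = 0.0782) for Cyp2d9 and -0.39 (SE 0.19, unadjusted p = 0.0637) for Cyp2d13, both with an adjusted p of 1.00 by limma. None of the 6 members passed, with 0 at an unadjusted p under 0.05 and 0 by limma-voom on recovered reads, and 0.00944% of all genes passed (1 of 10593). A difference between day 25 and day 30 was thus not shown for any Cyp2d gene.

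With both days combined and the day as a covariate, 6 Con and 6 CR mice could be compared. Cyp2d9 was lower by a log2 fold change of -1.25 (SE 0.21, adjusted p = 0.000795, limma) and Cyp2d13 by -0.29 (SE 0.11, adjusted p = 0.0541), where 26.1% of all genes passed as lower. Cyp2d26 was higher by 0.30 (SE 0.09, adjusted p = 0.0201) and Cyp2d22 by 0.25 (SE 0.08, adjusted p = 0.0281), where 14.5% passed as higher. Cyp2d9 was again the 1 member at least 2-fold lower, beside 0.84% of all genes. Cyp2d40 (-0.28, adjusted p = 0.119) and Cyp2d10 (-0.16, adjusted p = 0.279) did not pass, but Cyp2d40 passed with the replicate block at day 25 (adjusted p = 0.0297), as TPM (0.0488) and with limma-voom (0.0509), and Cyp2d10 passed with quantile normalization (-0.26, adjusted p = 0.0300) and with the block at both days (0.0733). Cyp2d13 was lost in 5 of 12 models that left out 1 mouse (adjusted p up to 0.114) and under median-ratio scaling (adjusted p = 0.118).

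Exact 2-sided permutation tests that reassigned the diet within each day gave p = 0.005 for Cyp2d9 and for Cyp2d22, the smallest value that the 400 reassignments allow. The same exact permutation test gave p = 0.015 for Cyp2d26, 0.045 for Cyp2d13, 0.1 for Cyp2d40 and 0.195 for Cyp2d10. For the 3 members under the filter the exact permutation p was 0.68 for Cyp2d11, 0.225 for Cyp2d12 and 0.65 for Cyp2d34. With the diet swapped only within same-numbered mice at day 25, an alternative chosen after seeing the data, 160 reassignments remain and the smallest possible exact permutation p is 0.0125. That p was reached by Cyp2d9, Cyp2d10, Cyp2d22 and Cyp2d26, and it was 0.025 for Cyp2d40 and 0.05 for Cyp2d13. All these values are unadjusted. Over both days, 5 of 6 CR mice were below the lowest Con mouse for Cyp2d9 and 5 of 6 were above the highest for Cyp2d26.

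The ratio of 2 members within a mouse does not depend on the scaling of the library. Cyp2d9 was 2.28 to 2.60 times as abundant as Cyp2d10 in the 6 Con mice (median 2.41) and 0.686 to 1.72 times in the 6 CR mice (median 1.12). By day, the ratio was 2.43 ± 0.147 in Con and 1.45 ± 0.352 in CR mice at day 25, and 2.41 ± 0.114 and 0.927 ± 0.249 at day 30 (SD, n = 3). The spread among Con mice was thus small although Cyp2d9 itself ranged from 611 to 1108 FPKM, and no CR mouse reached the Con range. The ratio of Cyp2d9 to Cyp2d26 was 1.40 to 2.13 in Con and 0.265 to 1.08 in CR mice, again without overlap.

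**Figure D4:**
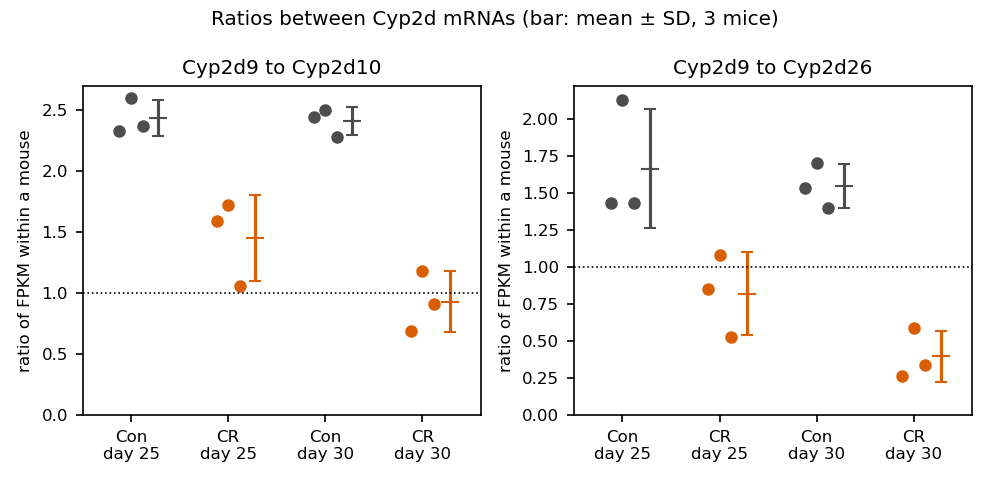
Ratio of Cyp2d9 to Cyp2d10 (left) and of Cyp2d9 to Cyp2d26 (right) in each mouse (points; vertical axis, ratio of FPKM from 0), with the mean ± SD of 3 mice and a dotted line at equal levels. In the 6 Con mice both ratios stood above 1.40, whereas CR mice reached at most 1.72 and 1.08.

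The makeup of the family's mRNA differed between the diets. Cyp2d9 made up 44.4% ± 4.17 of the summed FPKM of the 9 members in Con and 29.6% ± 6.32 in CR mice at day 25, and 43.0% ± 2.01 and 18.4% ± 5.43 at day 30. At day 25 Cyp2d26 made up 27.3% ± 3.58 in Con and 37.3% ± 5.45 in CR mice, and at day 30 it made up 27.9% ± 1.43 and 48.1% ± 5.94. Shares have a fixed total, so a lower share of Cyp2d9 raises the others. The level of Cyp2d26 itself did not pass at day 25 (adjusted p = 0.403, limma). The share of Cyp2d10 stayed between 17.9% and 20.5% in the 4 group means. The summed level was 1853 ± 355 FPKM in Con and 1520 ± 204 in CR mice at day 25, with overlap, and 1609 ± 129 and 1260 ± 60.1 at day 30, without overlap (SD, n = 3).

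Mice of one group varied together in some members. After subtraction of group means over the 12 libraries, Pearson's r was 0.944 between Cyp2d10 and Cyp2d40, 0.860 between Cyp2d9 and Cyp2d40 and 0.729 between Cyp2d9 and Cyp2d10. It was -0.222 between Cyp2d9 and Cyp2d26 and 0.549 between Cyp2d22 and Cyp2d26. These points share their libraries and depth, and 4.03% of the 100-base windows of Cyp2d9 have a copy in Cyp2d10. Replicate 2 at day 25 carried part of it: on the log2 scale the Con mouse was 0.45 above its group mean for Cyp2d9, 0.35 for Cyp2d10 and 0.42 for Cyp2d40, and the CR mouse 0.49, 0.22 and 0.31 above its own.

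Outside the family, the gene whose log2 level over the 12 libraries was most like Cyp2d9 was Lrrc3 (r = 0.986, and 0.922 after subtraction of group means), followed by Serping1, the complement C1 inhibitor (0.970 and 0.960). Cyp2d10 was most like Ctsf, which encodes cathepsin F (0.964 and 0.964), and Neurl2 (0.950 and 0.921), and Cyp2d40 most like Eif3d, a translation initiation factor subunit (0.972 and 0.956), and Lrp10 (0.965 and 0.944). Cyp2d22 was most like the amino acid catabolic genes Prodh (0.958 and 0.942) and Sds (0.938 and 0.837). Cyp2d26 was most like Ang (0.974 and 0.928) and 1600020E01Rik (0.946 and 0.898), and Cyp2d13 most like Proca1 (0.921 and 0.867) and Hdhd3 (0.919 and 0.893). These genes were the highest of all tested, so the values describe the pattern only.

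In a list of genes on P450 electron transfer, Por and Cyb5a passed as higher under CR at both days. The other genes of the list did not pass as higher at either day. Por, which encodes cytochrome P450 oxidoreductase, was at 283 ± 91.2 FPKM in Con and 603 ± 49.0 in CR mice at day 25, and at 167 ± 21.6 and 525 ± 29.3 at day 30 (SD, n = 3). Its log2 fold change was 1.14 (adjusted p = 0.00608) and 1.65 (adjusted p = 0.000412, limma). Cyb5a, the microsomal cytochrome b5, rose by 0.40 at day 25 and 0.33 at day 30 (adjusted p = 0.0516 and 0.0702). Of the 5 genes of this list, all tested, 2 were higher and 0 lower at day 25, and 2 were higher and 2 lower at day 30. Among all genes tested, 5.6% were higher and 9.34% lower at day 25, and 8.33% and 16.4% at day 30. These shares also stand beside the counts of the lists below. The lower 2 were Cyb5b (-0.41, adjusted p = 0.0995) and Pgrmc1 (-0.32, adjusted p = 0.0645), the latter named after its value was seen. The list median was 0.19 at day 25 and -0.03 at day 30.

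Transcription factors and hormone signaling genes that act on liver P450 genes were followed in a list of 18, all tested. At day 25, 2 were higher and 1 lower, beside 5.6% and 9.34% of all genes tested. At day 30, 2 were higher and 4 lower, beside 8.33% and 16.4%. The list medians were -0.11 and -0.21. Hnf4a, which encodes HNF4α, had log2 fold changes of 0.24 and 0.08 that did not pass (adjusted p = 0.256 and 0.704). Klf9, a glucocorticoid-responsive zinc finger factor, did not pass at day 25 (-0.18, adjusted p = 0.352) and fell at day 30 (-0.46, adjusted p = 0.0187). Cebpa was also lower at day 30 (-0.75, adjusted p = 0.00559), and Nr1i2, the pregnane X receptor, was higher at both days (0.75 and 0.84, adjusted p = 0.00684 and 0.00206). Nr0b2, the small heterodimer partner that represses several P450 genes, rose at day 25 (1.02, adjusted p = 0.0148) but did not pass at day 30 (0.50, adjusted p = 0.144). Of the growth hormone pathway, Ghr (-0.05 and -0.44, adjusted p = 0.890 and 0.101), Stat5b (-0.11 and -0.11, adjusted p = 0.593 and 0.562) and Bcl6 (0.22 and -0.49, adjusted p = 0.868 and 0.621) did not pass at either day, whereas Stat5a, named after its values were seen, fell at day 30 (-0.40, adjusted p = 0.0696) and did not pass at day 25 (-0.17, adjusted p = 0.482). Cux2, a female-predominant repressor in liver, was at 0.114 ± 0.0492 FPKM in Con and 3.62 ± 1.84 in CR mice at day 30 (1.98, adjusted p = 0.0261) and did not pass at day 25 (0.88, adjusted p = 0.336).

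Because Cyp2d9 is a male-predominant gene, other sex-biased liver genes were listed beside it. The lists were chosen with results of these data known, so their counts are not independent evidence of a direction. Of the 13 tested male-biased genes, 7 were lower and 0 higher at day 25, and 13 lower and 0 higher at day 30, with medians of -1.42 and -3.45. Among the 13, 1 reached 1 FPKM in Con mice alone, and 1 listed gene was under the filter. Cyp4a12a, a fatty acid hydroxylase, had log2 fold changes of -1.95 (adjusted p = 0.0720) and -3.45 (adjusted p = 0.00351). Hsd3b5, a steroid dehydrogenase, did not pass at day 25 (0.39, adjusted p = 0.856) and fell by 3.62 at day 30 (adjusted p = 0.0309). The largest changes at day 30 were those of Serpina1e (-6.51, adjusted p = 0.00100), Selenbp2 (-6.13, adjusted p = 0.000974) and Mup20 (-4.40, adjusted p = 0.000174). The log2 fold changes of Cyp2d9 were thus smaller in size than the list median at both days.

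Of the 12 tested female-biased genes, 8 were higher and 0 lower at day 25, and 11 higher and 0 lower at day 30, with medians of 1.57 and 2.16. These counts leave out 6 of the 18 listed genes that were under the filter, among them Cyp3a41a, Cyp3a41b and Cyp3a44, which stayed near 0 FPKM in both diets. They include 4 genes that reached 1 FPKM in no Con mouse and entered through the CR mice in which they were high, so the filter favored higher genes and the counts only describe the genes tested. Cyp2b9, a female-predominant P450, was at 0.132 ± 0.0969 FPKM in Con and 148 ± 42.0 in CR mice at day 30 (log2 fold change 7.01, adjusted p = 3.99e-07). Cyp2b13, a close relative of Cyp2b9 that may share reads with it, was at 0.00867 ± 0.0150 and 15.1 ± 22.4 FPKM (2.88, adjusted p = 0.0190), with a spread among CR mice larger than their mean.

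**Figure D5:**
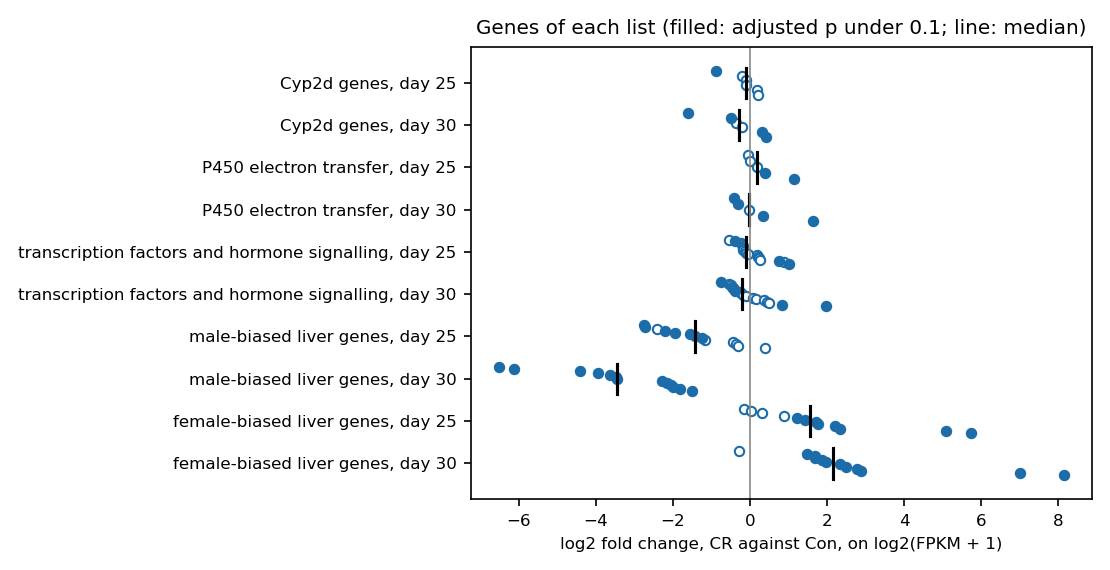
Log2 fold change of CR against Con (horizontal axis, log2(FPKM + 1) scale) for each tested gene of 5 groups at day 25 and day 30; filled points had an adjusted p under 0.1 and vertical lines mark medians. Male-biased genes lay below 0 at day 30 (median -3.45) and all but 1 female-biased gene above it, whereas the Cyp2d genes lay on both sides; Cux2 belongs to both the transcription factor and the female-biased list.

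The rest of the P450 superfamily moved in both directions. Of 96 other Cyp genes in the table, 58 were tested. Of these, 14 were higher and 5 lower at day 25, and 17 higher and 10 lower at day 30. The shares over all genes tested were 5.6% higher and 9.34% lower at day 25, and 8.33% and 16.4% at day 30. Their median log2 fold change was 0.20 and 0.01, beside -0.10 and -0.28 for the 6 Cyp2d genes.

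Genes beside the array were followed as well. Of 21 other genes in the table within 300 kb of the outermost members, 7 were tested. Of these, 0 passed at day 25 and 1 at day 30. Over all genes, 5.6% passed as higher and 9.34% as lower at day 25, and 8.33% and 16.4% at day 30. The 1 that passed was Srebf2, the regulator of cholesterol synthesis (-0.45, adjusted p = 0.0307, limma). The nearest gene on each side did not pass at either day: Ndufa6, a complex I subunit, had log2 fold changes of 0.21 and 0.35 (adjusted p = 0.461 and 0.156) and Tcf20 had -0.23 and -0.19 (adjusted p = 0.168 and 0.192). Over both days both passed, Ndufa6 as higher (0.28, adjusted p = 0.0700) and Tcf20 as lower (-0.21, adjusted p = 0.0268). The pseudogene Cyp2d37-ps, inside the array, stood at 44.7 ± 0.578 FPKM in Con and 48.9 ± 3.55 in CR mice at day 25 and at 47.7 ± 9.67 and 44.9 ± 9.10 at day 30 (SD, n = 3). Its log2 fold changes of 0.13 and -0.09 did not pass (adjusted p = 0.689 and 0.754).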

How the data were processed

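The authors sequenced liver RNA as 100-base paired-end reads on 1 lane and mapped them to mm10. Per the labels, CASAVA 1.8.2, FastQC, BWA and DESeq2 were used. The deposited values are FPKM, which per the file headers HOMER made by counting exonic reads and condensing transcripts to 1 per gene. Here log2(FPKM + 1) of the 10593 genes that reached 1 FPKM in 3 or more libraries was fitted with limma 3.58.1 (R 4.3.3, moderation with a trend) in 1 model of 4 groups, or with day as a covariate over both days. Passing meant a Benjamini-Hochberg adjusted p under 0.1. A fold change on this scale understates that of low genes. Each step of low FPKM values gave back whole reads and the depth (100% of low values used were whole), and voom on those reads was an alternative. Replicate numbers were given by titles, and at day 30 for Con mice by column names. Same-numbered mice deviated together at day 25 (correlation 0.106 to 0.368, 3 pairs) and less so at day 30 (0.0456 to 0.181), so the numbers were taken to pair mice at day 25, and the pairing comes from the data. P-values measure the spread between these mice.

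All members, the named regulators and partners, at most 3 genes of each list with the largest change at day 30, the nearest neighbors and the 2 most alike genes of each member were named, except for items that are not reported here. The members and lists were chosen with earlier results of these data known. Alternatives covered the pseudocount, filter, scaling, moderation, libraries in the model, block, threshold and each mouse left out. Tables were made with pandas 2.3.3 and numpy 2.4.6 under Python 3.11.15, and figures with matplotlib 3.10.9. Protein and isotope measurements were not used here.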

Additional observations from a re-analysis of the deposited data

How the results depend on the processing

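The count of Cyp2d genes that passed was within 1.5 times the reported count (1 at day 25, 4 at day 30, 4 over both days, 0 for the difference between days) in 92 of 98 alternatives. At day 25 it was 0 without the filter on low values and 0 at an adjusted p under 0.05, and from 0 to 1 with 1 mouse left out. At day 30 it ranged from 2 to 4 with 1 mouse left out, with 2 without CR replicate 1. The replicate block at day 25 gave 1 member at day 25, 5 at day 30 and 5 over both days, adding Cyp2d40, and changed no other call by limma. With the block at both days 6 members passed over both days. Of single members, 7 of 564 alternative values changed sign, all with 1 mouse left out and none of them passing: at day 25 up to 0.0643 for Cyp2d10 (from -0.24), 0.0282 for Cyp2d13 (from -0.18) and 0.0106 for Cyp2d40 (from -0.38), and for the difference between days up to 0.0309 for Cyp2d10 (from -0.27), 0.0189 for Cyp2d40 (from -0.37) and down to -0.0126 for Cyp2d22 (up to 0.17). The log2 fold change of Cyp2d9 ranged from -1.13 to -0.65 at day 25 and from -1.86 to -1.44 at day 30 over 24 alternatives each. Calls were gained in 11 and lost in 23 of the 564, of which 12 were the day 30 call of Cyp2d22. The percentage of the summed signal within a library cannot change as TPM, so reads without length scaling were its only real alternative. In those reads it moved by more than 1 SD in 10 cases over the 6 tested members and 4 groups. These were Cyp2d22 (from 5.21% to 8.50% in Con mice at day 25) and Cyp2d40 in all 4 groups and Cyp2d10 at day 30. The median over all genes at day 30 was -0.07 as deposited, -0.11 as TPM and -0.13 with voom. Depth limits Cyp2d11, Cyp2d12 and Cyp2d34, which had at most 13 reads in a library. The cause of each change was not tested.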
